A study of Mus musculus with 9 samples.

Results

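The genes described here are 35 genes of endoplasmic reticulum-associated degradation (ERAD), chosen by symbol from a table of 33211 genes measured by RNA-seq in mouse liver. Of them, 34 were found under the symbol used here and 1, Ubl4a, under its Ensembl identifier, since the table lists it as Ubl4. The mice were male and wild type per the methods of the study, of a strain that the labels give as C57BL/6 and the methods as C57BL6/J. They were 8 weeks old when they began an HFD, which they ate for 7 weeks. In the HFDfre group the diet had been kept in a freezer at -20 °C (n = 5), and in the HFDfri group it had been kept in a fridge at 4 °C (n = 4). Storage of the diet is thus the named difference between the groups, all animals ate an HFD, and a group on normal chow is not analysed here. The comparison asks how the storage of the diet affects these genes in the liver. The labels number the samples without naming animals or cultures, so p-values measure the spread between these samples.

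ERAD removes proteins that fail to fold in the endoplasmic reticulum (ER). Lectins and mannosidases mark the misfolded glycoproteins, membrane complexes built around ubiquitin ligases pass them back to the cytosol and tag them with ubiquitin, and the ATPase p97 pulls them out of the membrane and hands them to the proteasome. Hepatocytes secrete large amounts of glycoprotein and hold an abundant ER, and several ERAD genes are targets of the unfolded protein response (UPR), in which the transcription factors ATF6 and XBP1 bind ER stress elements in promoters.

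Library totals ran from 58614917 to 69353439 counts, and the ERAD genes together took between 0.164% and 0.221% of the counts in HFDfre and between 0.203% and 0.313% in HFDfri, so that the groups overlapped. All 35 genes passed the filter on low counts, with 89 (Derl3) to 60557 (Herpud1) counts per library. The 8 hepatocyte markers checked were all detected, at a summed level, mostly from Alb, of 90106 to 96428 CPM (counts scaled to a common library total after TMM normalization) in HFDfre and 80242 to 107882 CPM in HFDfri. Single hepatocyte markers differed in both directions. At an unadjusted p under 0.05 by edgeR, 4 were higher in HFDfri, with log2 fold changes of 0.70 for Cps1, 0.46 for Hnf4a, 0.28 for Serpina1a and 0.26 for Apob, and Hnf4a and Serpina1a had no overlap between the groups. Ttr was lower at that p (-0.43), and 0 of the 8 had an adjusted p under 0.05. Their part in the values of the ERAD genes was not tested. A ribosomal RNA-like locus took 1.20% to 11.1% of the counts in HFDfre and 0.466% to 5.21% in HFDfri. Mitochondrial genes took 11.4% to 19.8% in HFDfre and 8.93% to 13.6% in HFDfri.

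Promoters were searched for the elements through which the UPR acts, and those with a match are shown. Among them, Derl3, Syvn1 and Herpud1 had the highest log2 fold changes of the 35 genes, and Ube2j1 and Vcp ranked 12 and 14. RefSeq promoters (GRCm38.p6), from 250 bases before to 50 bases after the start of the gene, were found for 28 of the 35 genes. Ube2g2, which ranked 4 by log2 fold change, and Derl1, Rnf139, Rnf5, Erlin2, Aup1 and Erlec1 had none and were not searched. Both strands were searched. The ER stress element (ERSE) is CCAAT, 9 bases of any kind, then CCACG, and ERSE-II is ATTGG, 1 base of any kind, then CCACG. The UPR element (UPRE) is TGACGTGG. An ERSE was found in Derl3 and Syvn1 (7.14% of the 28 promoters), against 0.137% of the 27025 genes with a promoter. An ERSE-II was found in Herpud1 (3.57%), against 0.0444%. A UPRE was found in Ube2j1 and Vcp (7.14%), against 0.714% of the genes. The short core CCACG, which is a part of ERSE and ERSE-II and, read on the other strand, overlaps UPRE, was in 67.9% of the 28 promoters (19) and in 35.5% of all. The amino acid response element (TGATG, 1 base of any kind, then AA) was in Herpud1 and Faf2 (7.14%), against 4.51%. A match is a match of letters, and binding was not measured. Several ERAD genes are known targets of the UPR, so these shares are no test of the UPR in these data. The 250 bases before the RefSeq start are given 5′ to 3′ on the strand of the gene, with the ERSE, ERSE-II or UPRE in capitals.
Syvn1 (chr19:6046326-6046575, plus strand): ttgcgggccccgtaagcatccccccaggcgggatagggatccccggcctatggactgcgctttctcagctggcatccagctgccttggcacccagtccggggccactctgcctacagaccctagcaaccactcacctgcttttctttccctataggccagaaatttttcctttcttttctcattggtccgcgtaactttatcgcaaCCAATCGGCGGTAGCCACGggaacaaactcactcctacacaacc
Derl3 (chr10:75893148-75893397, plus strand): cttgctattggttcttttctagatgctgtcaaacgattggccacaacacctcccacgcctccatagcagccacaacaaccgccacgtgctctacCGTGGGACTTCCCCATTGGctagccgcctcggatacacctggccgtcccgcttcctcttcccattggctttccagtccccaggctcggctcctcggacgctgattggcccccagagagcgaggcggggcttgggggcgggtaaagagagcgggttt
Herpud1 (chr8:94386179-94386428, plus strand): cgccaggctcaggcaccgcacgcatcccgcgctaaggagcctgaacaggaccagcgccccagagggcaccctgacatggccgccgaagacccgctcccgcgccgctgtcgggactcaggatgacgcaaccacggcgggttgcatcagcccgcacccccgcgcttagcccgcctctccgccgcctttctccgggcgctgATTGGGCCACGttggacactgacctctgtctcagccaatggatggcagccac
Ube2j1 (chr4:33031130-33031379, plus strand): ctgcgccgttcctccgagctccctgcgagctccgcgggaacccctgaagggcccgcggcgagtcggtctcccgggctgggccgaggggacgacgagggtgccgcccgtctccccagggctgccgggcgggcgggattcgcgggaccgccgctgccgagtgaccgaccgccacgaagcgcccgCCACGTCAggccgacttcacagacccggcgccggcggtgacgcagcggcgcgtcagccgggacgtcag
Vcp (chr4:43000508-43000757, minus strand): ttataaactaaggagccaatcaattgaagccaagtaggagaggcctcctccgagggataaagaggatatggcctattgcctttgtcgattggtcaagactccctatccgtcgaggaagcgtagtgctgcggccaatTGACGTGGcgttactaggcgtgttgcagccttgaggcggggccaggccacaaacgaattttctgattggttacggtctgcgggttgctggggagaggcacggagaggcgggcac
The ERSE lay at positions -44 to -26 from the start in Syvn1 and at -156 to -138 in Derl3, where it was read on the opposite strand. The ERSE-II of Herpud1 lay at -52 to -42. The UPRE lay at -68 to -61 in Ube2j1, on the opposite strand, and at -114 to -107 in Vcp.

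None of the 35 ERAD genes passed an adjusted p of 0.05 with edgeR's quasi-likelihood test, which 1.05% of the 14220 tested genes did. The balance of the genes was towards higher levels in HFDfri. At an unadjusted p under 0.05, 13 of the 35 genes (37.1%) were higher in HFDfri, against 11.4% of all tested genes, and 0 were lower, against 9.79%. ERAD genes are well expressed, and among genes with a mean of at least 10 CPM, which 34 of the 35 reached, the share was 17.6%, still below that of the ERAD genes. The levels of the groups did not overlap in 4 genes, all higher in HFDfri (11.4% of the 35, against 4.02% of all tested genes), and in 0 genes that were lower (against 3.66%). For this measure and the next, the share among genes with a mean of at least 10 CPM was not taken. The log2 fold change, HFDfri minus HFDfre, was above 0 in 23 of the 35 genes (65.7%, against 49.1% of all tested genes). Its median was 0.11, against -0.0068 over all tested genes. With library totals as the scaling, which moved the median of all tested genes to 0.0514, 29 of the 35 were above 0 (82.9%, against 56.3% of all tested genes), and the median of the 35 was 0.16. In bulk liver, fewer cells of a type and less RNA per cell cannot be told apart.

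Other fits moved these counts. DESeq2, which tests with another dispersion model, gave 4 ERAD genes with an adjusted p under 0.05, all higher (Faf2, Edem1, Erlin1 and Nploc4), where 5.23% of the 10901 genes given an adjusted p were called higher, and limma-voom gave 0. The count of 13 fell to 5 without the library HFDfri 3, and it was 4 with the mitochondrial share as a covariate and 3 within the 5 libraries whose ribosomal RNA-like share was under 3% (2 HFDfre, 3 HFDfri). HFDfri 3, at 5.21%, is not among those 5 libraries, so the fall to 3 is not separate from the loss of HFDfri 3. With the ribosomal RNA-like share as a covariate in all 9 libraries the count was 13. The mitochondrial share was mostly lower in HFDfri (8.93% to 13.6%) than in HFDfre (11.4% to 19.8%). Fits with it as a covariate, here and for single genes below, therefore cannot separate that share from the diet group.

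**Figure D1:**
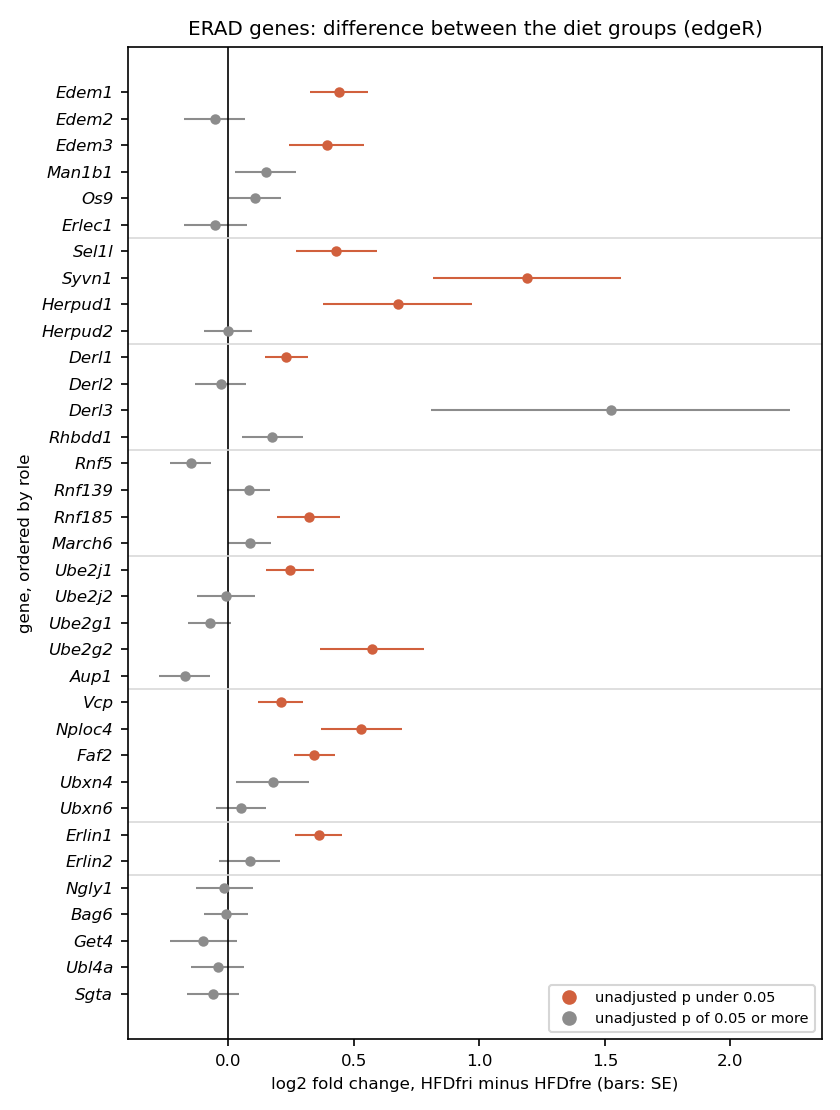
Log2 fold change of each ERAD gene, HFDfri minus HFDfre, from edgeR (x axis), with genes in rows ordered by role and bars showing the SE; coloured points have an unadjusted p under 0.05. The 13 coloured genes all lie above 0, Derl3 is the highest with the widest bar, and the 5 genes of cytosolic deglycosylation and holdase lie just below 0, of which Bag6, Ngly1 and Ubl4a are above 0 with library totals as the scaling.

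Among the 6 genes of substrate recognition, 2 had an unadjusted p under 0.05, Edem1 and Edem3. They encode lectin-like proteins of the ER lumen that help to trim mannose from misfolded glycoproteins and send them to degradation. Edem1 (ENSMUSG00000030104, chr6:108828641-108859356 in GRCm38) was at 61.9, 76.2, 65.6, 70.5 and 76.8 CPM in HFDfre 1 to 5 and at 97, 84.1, 116 and 83.2 CPM in HFDfri 1 to 4. Every HFDfri library was above every HFDfre library. The mean (± SD) was 70.2 ± 6.53 CPM over the 5 HFDfre libraries and 95.2 ± 15.5 CPM over the 4 HFDfri libraries, a ratio of 1.36, with a log2 fold change of 0.44 ± 0.12 by edgeR (SE, adjusted p = 0.0806). Edem3 (ENSMUSG00000043019, chr1:151755371-151822051) was at 26.4, 24.5, 28.2, 23.5 and 27.6 CPM in HFDfre and at 36.0, 27.5, 46.1 and 27.0 CPM in HFDfri. HFDfri 1 and 3 were above all HFDfre libraries, whereas HFDfri 2 and 4 lay among them. The log2 fold change of Edem3 was 0.39 ± 0.15 by edgeR (SE, adjusted p = 0.168). Leaving out HFDfri 3 gave 0.21. Their relative Edem2 differed by -0.06 ± 0.12 (log2, SE). Man1b1, the ER mannosidase that makes the first cut, differed by 0.15 ± 0.12. The lectins that read the trimmed glycan, Os9 and Erlec1, differed by 0.11 ± 0.10 and -0.05 ± 0.13. Os9 was the member of this group with the highest level per length, 61.9 CPM per kb as a mean of all libraries.

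The core of the main ERAD ligase held 3 genes of 4 with an unadjusted p under 0.05. Syvn1 encodes HRD1, the ubiquitin ligase of the ER membrane through which many lumenal substrates pass, Sel1l encodes the adaptor that holds and stabilises it, and Herpud1 encodes HERP, a short-lived membrane protein of the same complex. Syvn1 (ENSMUSG00000024807, chr19:6046576-6053712), with an ERSE before its start, was at 39.9, 38.4, 44.4, 43.1 and 48.7 CPM in HFDfre and at 112, 34.4, 192 and 52.9 CPM in HFDfri. HFDfri 1, 3 and 4 were above all HFDfre libraries, and HFDfri 2 was the lowest of all 9. The mean was 42.9 ± 4.02 CPM in HFDfre and 97.8 ± 70.9 CPM in HFDfri, a ratio of 2.28. By edgeR, the groups differed by 1.19 ± 0.37 on the log2 scale (SE, adjusted p = 0.116). The difference was 0.63 without HFDfri 3, and without HFDfri 2 it was 1.47 with an adjusted p of 0.0378 by edgeR.

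Sel1l (ENSMUSG00000020964, chr12:91806043-91849157) was nearly constant in HFDfre, at 67.9, 65.7, 66.3, 65.7 and 70.6 CPM, and was at 86.1, 71.7, 133 and 72.2 CPM in HFDfri. The groups did not overlap, but HFDfri 2 and 4 were only just above the highest HFDfre library. A log2 fold change of 0.43 ± 0.16 (SE) was found with edgeR (adjusted p = 0.162). Leaving out HFDfri 3 gave 0.19. Herpud1 (ENSMUSG00000031770, chr8:94386438-94395377), with an ERSE-II, had the highest level per length of the 35 genes, 153 CPM per kb. It was at 208, 294, 269, 365 and 279 CPM in HFDfre and at 228, 339, 822 and 417 CPM in HFDfri. HFDfri 3 and 4 were above all HFDfre libraries, and HFDfri 1 was below all of them except HFDfre 1. The mean was 283 ± 56.3 CPM in HFDfre and 452 ± 259 CPM in HFDfri, with a log2 fold change of 0.67 ± 0.30 by edgeR (SE, adjusted p = 0.221). Without HFDfri 3 the log2 fold change was 0.21, and with the mitochondrial share as a covariate it was 0.02. Herpud2, the paralog of Herpud1, differed by 0.00 ± 0.10 (log2, SE).

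**Figure D2:**
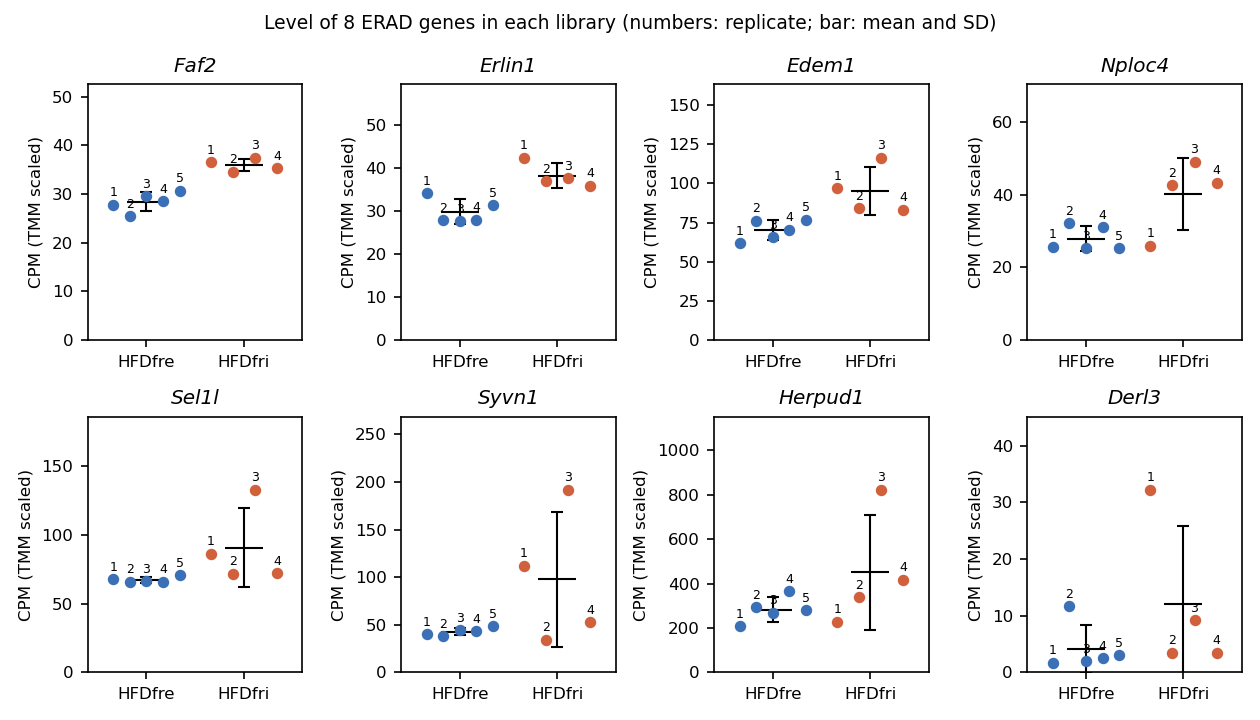
Level of 8 ERAD genes (y axis, CPM after TMM scaling, from 0) in each HFDfre and HFDfri library, with replicate numbers beside the points; horizontal bars are group means, error bars are SD, and those of Derl3 are cut at 0. In Faf2, Erlin1, Edem1 and Sel1l no HFDfri point is as low as an HFDfre point, whereas the spread of Sel1l, Syvn1 and Herpud1 in HFDfri comes with a high HFDfri 3 and that of Derl3 with a high HFDfri 1.

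The derlins are membrane proteins of the rhomboid family without protease activity that help to move substrates across the membrane. Derl1 (ENSMUSG00000022365, chr15:57869502-57892448) was at 79.4, 80.5, 78.0, 90.6 and 84.4 CPM in HFDfre and at 105, 87.1, 102 and 94.5 CPM in HFDfri. Only HFDfri 2 lay within the HFDfre range. edgeR gave a log2 fold change of 0.23 ± 0.09 (SE, adjusted p = 0.163). Derl3 (ENSMUSG00000009092, chr10:75893413-75895941), the derlin known for its strong induction in ER stress and with an ERSE before its start, was at 1.71, 11.7, 2, 2.54 and 3.01 CPM in HFDfre and at 32.2, 3.46, 9.19 and 3.50 CPM in HFDfri. HFDfri 1 was the highest, HFDfre 2 was the next, and HFDfri 2 and 4 were close to the other HFDfre libraries. Derl3 had the largest log2 fold change of the 35 genes, 1.52 ± 0.72 (SE), with an unadjusted p of 0.0551 and an adjusted p of 0.248 by edgeR. The value was 0.35 without HFDfri 1 and 2.37 without HFDfre 2, so that either library moved it by more than 1.5 times. Derl2 differed by -0.03 ± 0.10 (log2, SE). Rhbdd1, a rhomboid protease that cleaves membrane substrates, differed by 0.18 ± 0.12 and had the lowest level per length of the 35 genes, 1.87 CPM per kb.

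Markers of pancreatic acinar cells, which hold much ER, were low in every library. Of 8 markers, 4 were at 0 in every library (Cpa1, Prss2, Pnlip and Amy2a5). The summed level was 10.3 to 17.1 CPM in HFDfre and 17.5 to 25.6 CPM in HFDfri, without overlap. Nearly all of it came from Cela1, at 9.96 to 16.8 CPM in HFDfre and 17.2 to 25.3 CPM in HFDfri. Cela2a was at 0.0702 to 0.378 CPM in HFDfre and 0.263 to 0.312 CPM in HFDfri. Ctrb1 and Clps were at 0.0612 CPM or less in every library. The gap between the groups in the sum is thus that of Cela1 and not of the list. The 7 markers of B and plasma cells, which are also rich in ER, summed to 69.6 to 102 CPM in HFDfre and 72.8 to 102 CPM in HFDfri, nearly all of it from Sdc1, at 62.0 to 92.6 CPM and 68.4 to 98.7 CPM. Sdc1 differed by 0.27 ± 0.14 (log2, SE), and the other 6 had log2 fold changes below 0, among them Jchain (-0.80, unadjusted p = 0.0155 by edgeR). The summed levels of the lists of macrophages and Kupffer cells, stellate cells and fibroblasts, endothelial cells, cholangiocytes, T and NK cells and erythroid cells overlapped between the groups. Among their single markers, Alas2 of the erythroid list was higher in HFDfri without overlap (log2 fold change 0.40 ± 0.08, SE, adjusted p = 0.0486 by edgeR), and the 4 globin genes of that list had log2 fold changes below 0. At an unadjusted p under 0.05, Tek of the endothelial list was lower without overlap (-0.45), and Col3a1 (-0.62) and Des (-0.63) of the stellate list were lower with overlap. Of the 6 tested T and NK markers, 5 were below 0, with a median of -0.86, and 0 had an unadjusted p under 0.05. The part of other cell types in the values of the ERAD genes was not tested.

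Of the other ubiquitin ligases of the ER membrane, Rnf185 had an unadjusted p under 0.05. Rnf185 (ENSMUSG00000020448, chr11:3415982-3452363) was at 18.3, 17.4, 17.5, 21.6 and 20.2 CPM in HFDfre and at 22.9, 22.1, 30.0 and 19.9 CPM in HFDfri. HFDfri 4 lay within the HFDfre range and the other HFDfri libraries above it. By edgeR, the groups differed by 0.32 ± 0.13 on the log2 scale (SE, adjusted p = 0.179), and by 0.19 when HFDfri 3 was left out. Its close relative Rnf5 had the opposite sign, -0.15 ± 0.08 (log2, SE), with 75.9 ± 5.02 CPM in HFDfre and 68.4 ± 3.61 CPM in HFDfri. The difference between these paralogs was not tested. March6, a ligase that also degrades enzymes of sterol synthesis, differed by 0.09 ± 0.09, and Rnf139, a ligase with a sterol-sensing domain, by 0.08 ± 0.09.

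Ubiquitin-conjugating enzymes work with these ligases, and Ube2j1 and Ube2g2 of the 5 genes in this group had an unadjusted p under 0.05. Ube2g2 (ENSMUSG00000009293, chr10:77622275-77645993), a soluble enzyme that works with HRD1 and other ligases, was at 15.4, 15.7, 14.7, 22.5 and 15.5 CPM in HFDfre and at 17.2, 20.6, 37.3 and 24.6 CPM in HFDfri. HFDfri 3 and 4 were above all HFDfre libraries, and HFDfre 4 stood above the other HFDfre libraries. A log2 fold change of 0.57 ± 0.21 (SE) was found with edgeR (adjusted p = 0.153). It was 0.31 without HFDfri 3 and 0.07 with the mitochondrial share as a covariate, and it was 0.70 with an adjusted p of 0.0461 by edgeR without HFDfri 1. Ube2j1 (ENSMUSG00000028277, chr4:33031416-33052363), which is anchored in the ER membrane and has a UPRE before its start, was at 25.5, 25.1, 24.9, 23.6 and 26.4 CPM in HFDfre and at 32.5, 24.9, 32.1 and 29.7 CPM in HFDfri. HFDfri 2 was within the narrow HFDfre range and the other HFDfri libraries were above it. edgeR gave a log2 fold change of 0.25 ± 0.10 (SE, adjusted p = 0.173). Ube2j2 and Ube2g1 differed by -0.01 ± 0.12 and -0.08 ± 0.08 (log2, SE). Aup1, a protein of the ER and lipid droplets that recruits Ube2g2, had the lowest log2 fold change of the 35 genes, -0.17 ± 0.10, with 122 ± 8.10 CPM in HFDfre and 108 ± 14.0 CPM in HFDfri.

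All 5 genes of p97 and its cofactors had a log2 fold change above 0, as had 49.1% of all tested genes. Of the 5, 3 had an unadjusted p under 0.05 by edgeR, and 11.4% of all tested genes were higher at that p. Ubxn4 was at -0.009 within the libraries under the ribosomal RNA-like limit, and Ubxn6 at -0.17 with the mitochondrial share as a covariate. Faf2 encodes UBXD8, which anchors p97 at the ER and at lipid droplets, and it had the smallest p of the 35 genes. Faf2 (ENSMUSG00000025873, chr13:54621784-54664063) was at 27.8, 25.5, 29.6, 28.6 and 30.7 CPM in HFDfre and at 36.6, 34.6, 37.5 and 35.4 CPM in HFDfri. The groups did not overlap, and the libraries within each group lay close together. The mean was 28.4 ± 1.97 CPM in HFDfre and 36.0 ± 1.30 CPM in HFDfri, a ratio of 1.27. The log2 fold change was 0.34 ± 0.08 (SE), with an unadjusted p of 0.0013 and an adjusted p of 0.0651 by edgeR. It stayed between 0.30 and 0.37 in the fits that each left out 1 library, with an adjusted p of 0.0458 by edgeR without HFDfri 1.

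Nploc4 (ENSMUSG00000039703, chr11:120380370-120437708) encodes NPL4, which binds ubiquitin chains for p97. It was at 25.7, 32.1, 25.2, 31.0 and 25.4 CPM in HFDfre and at 26.0, 42.6, 49.1 and 43.3 CPM in HFDfri. HFDfri 2, 3 and 4 were above all HFDfre libraries, and HFDfri 1 was at the level of the lowest of them. By edgeR, the groups differed by 0.53 ± 0.16 on the log2 scale (SE, adjusted p = 0.11), which became 0.68 with an adjusted p of 0.0155 without HFDfri 1 and 0.15 with the mitochondrial share as a covariate (both by edgeR). Vcp (ENSMUSG00000028452, chr4:42979963-43000507), which encodes p97 itself and has a UPRE before its start, was at 189, 208, 182, 222 and 186 CPM in HFDfre and at 223, 240, 232 and 217 CPM in HFDfri. HFDfre 4 reached into the HFDfri range. A log2 fold change of 0.21 ± 0.09 (SE) was found with edgeR (adjusted p = 0.209). The counts of Vcp are uncertain, since 36.3% of its 100-base stretches also occur in Vcp-rs or 1700022I11Rik. The membrane-bound cofactor Ubxn4 differed by 0.18 ± 0.15, and Ubxn6, which shares 71.5% of such stretches with the overlapping gene Chaf1a (at 0.107 to 1.01 CPM), by 0.05 ± 0.10 (log2, SE). Shared sequence was also over 10% for Rnf139 (22.7%, with Tatdn1), Rnf5 (15.3%) and Aup1 (15.2%, with Htra2), and the sources used here do not say whether strand was used in counting.

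Of the erlins, which form a ring-shaped complex in the ER membrane and target the IP3 receptor for degradation, Erlin1 had an unadjusted p under 0.05. Erlin1 (ENSMUSG00000025198, chr19:44034944-44069785) was at 34.1, 27.8, 27.6, 27.9 and 31.3 CPM in HFDfre and at 42.3, 36.9, 37.5 and 35.9 CPM in HFDfri. The groups did not overlap, with HFDfre 1 the nearest to HFDfri. edgeR gave a log2 fold change of 0.36 ± 0.09 (SE, adjusted p = 0.0806), and it stayed between 0.30 and 0.41 in the fits that each left out 1 library. Erlin2 differed by 0.08 ± 0.12 (log2, SE). The 5 genes that work on substrates in the cytosol all had log2 fold changes below 0, from -0.10 to -0.01, but with library totals as the scaling Bag6 (0.05), Ngly1 (0.05) and Ubl4a (0.01) were above 0. None had an unadjusted p under 0.05. They were Ngly1, the enzyme that removes N-glycans from extracted proteins, the BAG6 complex of Bag6, Get4 and Ubl4a, which keeps hydrophobic proteins soluble, and its partner Sgta.

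**Figure D3:**
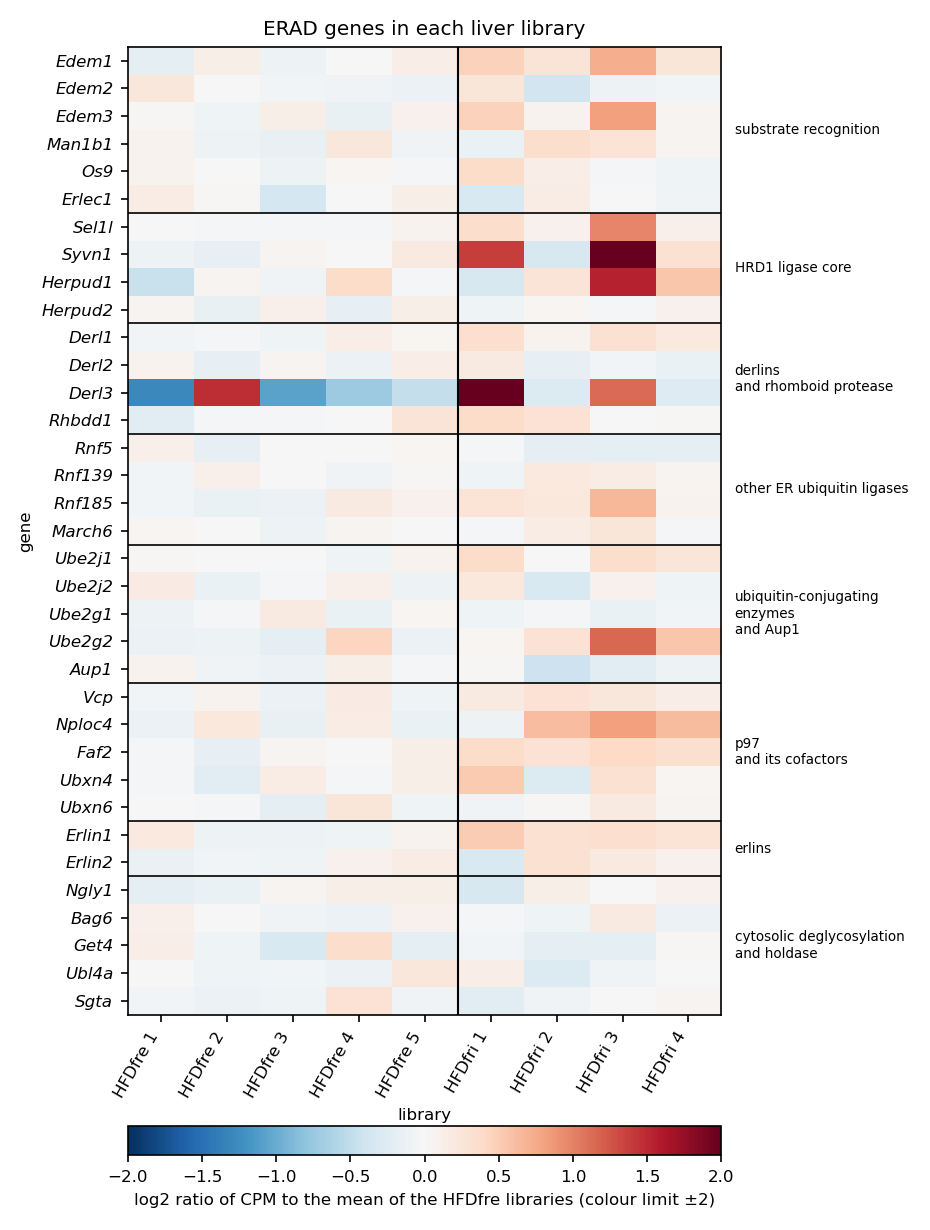
Log2 ratio of the level of each ERAD gene in each library (columns) to the mean of the HFDfre libraries, with genes in rows grouped by role; red is higher and blue lower, and the colour is limited at 2 either way, which Syvn1 in HFDfri 3 and Derl3 in HFDfri 1 exceed. The strongest red is in HFDfri 1 and HFDfri 3, and apart from Derl3 the HFDfre columns are pale.

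The higher levels were spread unevenly over the HFDfri libraries. The number of ERAD genes above all 5 HFDfre libraries was 17 in HFDfri 1 (48.6%, against 24.2% of all tested genes), 13 in HFDfri 2 (37.1%, against 24.1%), 19 in HFDfri 3 (54.3%, against 28.4%) and 10 in HFDfri 4 (28.6%, against 20.6%). HFDfri 3 thus had the highest and HFDfri 4 the lowest share over all tested genes as well. Neither these shares nor those of the highest level below were taken among genes with a mean of at least 10 CPM. The number over a log2 ratio of 0.5 to the HFDfre mean was 4 in HFDfri 1 (11.4%, against 11.4% of all tested genes and 7.14% of those with a mean of at least 10 CPM) and 1 in HFDfri 2 (2.86%, against 9.42% and 5.16%). It was 9 in HFDfri 3 (25.7%, against 13.8% and 11.6%) and 3 in HFDfri 4 (8.57%, against 7.77% and 3.83%). HFDfri 3 had the highest level of all 9 libraries in 11 ERAD genes (31.4%, against 17.3% of all tested genes) and HFDfri 1 in 10 (28.6%, against 15.6%), HFDfri 2 in 4 (11.4%, against 10.7%) and HFDfri 4 in 0 (against 6.71%). The 9 genes over 0.5 in HFDfri 3 were Syvn1 (2.16), Herpud1 (1.54), Ube2g2 (1.15), Derl3 (1.13), Sel1l (0.98), Edem3 (0.83), Nploc4 (0.82), Edem1 (0.73) and Rnf185 (0.66). The 4 in HFDfri 1 were Derl3 (2.94), Syvn1 (1.39), Ubxn4 (0.52) and Erlin1 (0.51), and Herpud1 was at -0.31 and Nploc4 at -0.10 in that library. Syvn1 and Derl3 were thus high in both, whereas Herpud1, Ube2g2 and Nploc4 were high in HFDfri 3 and near or below the HFDfre mean in HFDfri 1. In HFDfri 2 the gene over 0.5 was Nploc4 (0.61). In HFDfri 4 Nploc4 (0.63), Herpud1 (0.56) and Ube2g2 (0.55) were over 0.5.

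**Figure D4:**
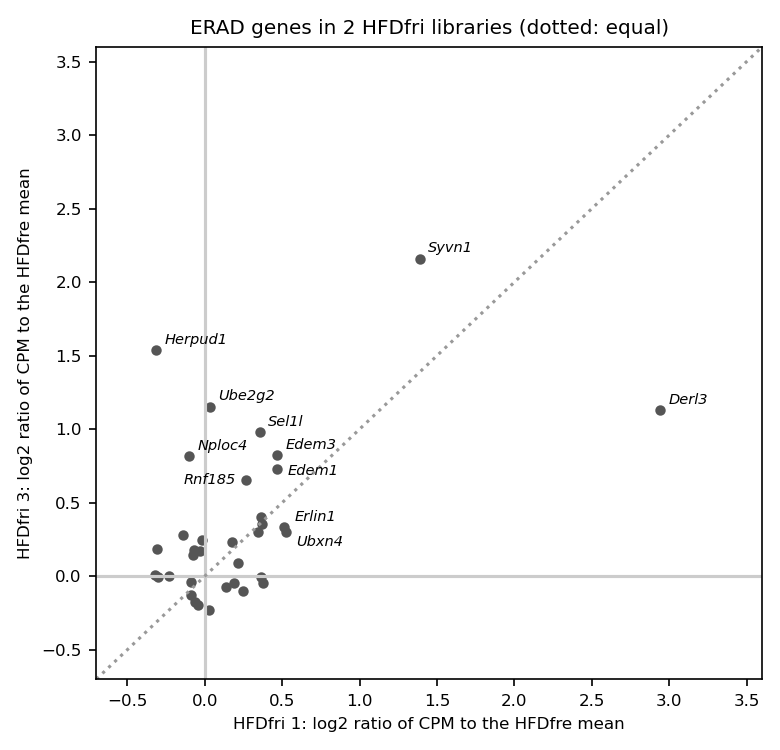
Log2 ratio to the HFDfre mean of the 35 ERAD genes in HFDfri 1 (x axis) and HFDfri 3 (y axis), the libraries in which most of the genes reached their highest level, chosen after the values were seen; genes over 0.5 either way are named and the dotted line marks equal values. Derl3 lies far below the line, Herpud1, Ube2g2 and Nploc4 lie above it near an x of 0, and Syvn1 is high on both axes.

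A list of 7 UPR sensors and transcription factors was read beside the ERAD genes. Xbp1, whose spliced form drives many ERAD genes, was at 126 to 156 CPM in HFDfre and at 382, 146, 192 and 155 CPM in HFDfri. The counts per gene do not separate the spliced form. Xbp1 was highest in HFDfri 1, as were Atf4 and 10 of the 35 ERAD genes (28.6%, against 15.6% of all tested genes), Derl3 among them. Eif2ak3, which encodes the sensor PERK, was at 4.45 to 6.90 CPM in HFDfre and at 7.18, 6.44, 22.4 and 5.89 CPM in HFDfri. Eif2ak3 was highest in HFDfri 3, as were Atf6, Atf6b, Ern1 and Ddit3. So were 11 of the 35 ERAD genes (31.4%, against 17.3% of all tested genes), Herpud1, Syvn1, Sel1l and Edem1 among them. In HFDfri 1, Eif2ak3 was above all HFDfre libraries and Herpud1 was not. Links between single genes of the lists were not tested. Atf6, the sensor that becomes a transcription factor, was at 35.1 to 41.6 CPM in HFDfre and at 43.4, 53.2, 56.3 and 47.9 CPM in HFDfri, without overlap. Its log2 fold change was 0.37 ± 0.10 by edgeR (SE, adjusted p = 0.0792). Of the 7 genes, 5 had an unadjusted p under 0.05 and were higher (Atf6, Atf6b, Ern1, Xbp1 and Eif2ak3), and 0 had an adjusted p under 0.05. The share higher at that unadjusted p was 11.4% of all tested genes. It was 17.6% of those with a mean of at least 10 CPM, a level that Eif2ak3 and Ddit3 did not reach. Atf4 and Ddit3, of the PERK branch, differed by 0.10 ± 0.14 and 0.22 ± 0.21 (log2, SE).

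**Figure D5:**
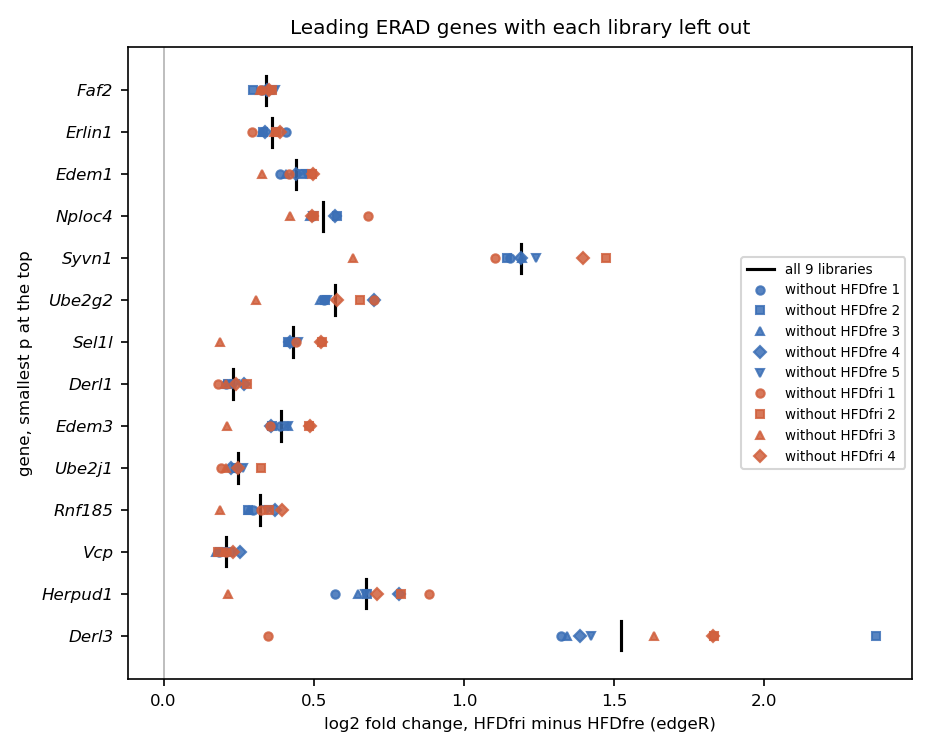
Log2 fold change, HFDfri minus HFDfre, from edgeR (x axis) for 14 ERAD genes in rows, with all 9 libraries (black bar) and with each library left out (points; blue without an HFDfre library, orange without an HFDfri library). Every point is above 0; Faf2 and Erlin1 keep within a narrow range, and Syvn1, Herpud1, Sel1l and Ube2g2 have their lowest value without HFDfri 3 and Derl3 without HFDfri 1.

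Other genes of the pathway were taken from a list of 47 ERAD cofactors and lumenal chaperones, of which 46 were in the table and 44 were tested. At an unadjusted p under 0.05, 12 of the 44 were higher in HFDfri and 3 were lower, and 0 had an adjusted p under 0.05 by edgeR. Of all 14220 tested genes, 11.4% were higher and 9.79% lower at that unadjusted p. Among genes with a mean of at least 10 CPM, a level that not all of the 44 reached, 17.6% were higher. The 6 with the smallest p were Canx, Ubxn2a, Selenos, Stub1, Dnajb2 and Hspa5. Canx, which encodes the lectin chaperone calnexin, was at 147 ± 13.7 CPM in HFDfre and 197 ± 15.8 CPM in HFDfri, without overlap. Its log2 fold change was 0.42 ± 0.10 by edgeR (SE, adjusted p = 0.0589). Selenos, which encodes a membrane protein that links p97 to the derlins, differed by 0.48 ± 0.12, and Ubxn2a, a p97 cofactor, by 0.51 ± 0.12 (log2, SE). Dnajb2, a cytosolic co-chaperone, differed by 0.68 ± 0.21. Stub1, which encodes the cytosolic ligase CHIP, was lower, at 45.0 ± 1.75 CPM in HFDfre and 36.3 ± 3.14 CPM in HFDfri, without overlap, with a log2 fold change of -0.31 ± 0.08 by edgeR (SE, adjusted p = 0.0840). Hspa5, which encodes BiP, the main chaperone of the ER lumen, was at 220 to 305 CPM in HFDfre and at 708, 220, 984 and 338 CPM in HFDfri, highest in HFDfri 3 and 1 like Syvn1. By kind, the 9 tested lumenal chaperones and reductases had 5 genes higher and 0 lower at that p, the 14 ligases and adaptors had 2 higher and 2 lower, the 12 p97 cofactors and deubiquitinases had 3 higher and 1 lower, and the 9 shuttles and insertion factors had 2 higher and 0 lower.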

How the data were processed

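Per the methods of the study, liver RNA (TRIzol) was sequenced from both ends on an Illumina instrument, and HISAT2 did the alignment. The submitters' processing notes also name StringTie and the build mm10. The library kit is NEBNext Ultra in the labels and KAPA HyperPrep in the methods. Neither the annotation nor strand use is given in the sources used here. The values the authors deposited were taken as estimated counts per gene, which were whole numbers already. Low values piled up at multiples of 4 (3990 values of 4, against 2172 of 3 and 1840 of 5), so counts divided by 4 were tried as well, an alternative chosen after seeing the data.

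After filterByExpr, edgeR 4.0.16 (R 4.3.3) was run with its quasi-likelihood test, TMM scaling, no covariate, and Benjamini-Hochberg adjustment over 14220 genes. The SE of a log2 fold change is its size over the root of the F statistic. CPM are counts scaled to a common library total after TMM scaling. Alternatives were DESeq2 1.42.0 (the tool of the study), limma-voom (limma 3.58.1), DESeq2 size factors, library totals, no filter, at least 10 counts in every library, robust dispersion, a replicate block, the ribosomal RNA-like share as a covariate, as a batch term (over or under 3%) and as a limit, the mitochondrial share as a covariate, and leaving out each library. The scripts were tested on simulated data. Coordinates are from GENCODE M21 (GRCm38, the same build as mm10), which holds 96.3% of the identifiers. Shared sequence was counted as 100-base stretches of exons that also occur in another gene's transcripts.

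The ERAD genes and all lists were chosen with earlier results of these data known. Values in every library are given for genes with an unadjusted p under 0.05 or groups that do not overlap, and for Sel1l, Syvn1, Vcp, Herpud1, Edem1 and Derl3. The partner genes named are the 6 with the smallest p. Promoters are printed for genes with an ERSE, ERSE-II or UPRE.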

Additional observations from a re-analysis of the deposited data

Results flagged for a closer look

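In each of the 35 ERAD genes and both groups, the library at the end of the range was checked for a gap to its neighbour that was large against the range of its group (Dixon's criterion). Of the 70 sets, 3 had such a library, and chance gives about 1 in 20, or 3.5. Rnf5 was at 6.21 log2 CPM in HFDfri 1 against 6.05 to 6.06 in the other HFDfri libraries, a gap of 0.95 of the range. Ube2g2 was at 4.5 log2 CPM in HFDfre 4 against 3.88 to 3.97 in the other HFDfre libraries, a gap of 0.85 of the range. Sgta was at 5.73 log2 CPM in the same library, HFDfre 4, against 5.33 to 5.40, a gap of 0.845 of the range. The ribosomal RNA-like locus took 5.58% and mitochondrial genes 11.4% of the counts of HFDfre 4, and their part in these values was not tested.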

How the results depend on the processing

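The genes given with values in every library kept a log2 fold change above 0 in every fit. Most were chosen by p or lack of overlap in these same libraries. With the mitochondrial share as a covariate, Herpud1 fell to 0.02 and Ube2g2 to 0.07. Small differences in other genes changed sign, and with library totals 29 genes were above 0 in place of 23. With all 9 libraries and edgeR, 0 ERAD genes had an adjusted p under 0.05. DESeq2 gave 4, the term for the ribosomal RNA-like batch gave 1 (Ube2g2, log2 fold change 0.70, adjusted p = 0.0494 by edgeR), and leaving out 1 library gave 0 to 3, with 3 without HFDfri 1 and 1 without HFDfri 2. The 13 genes higher at an unadjusted p under 0.05 became 3 within the libraries under the ribosomal RNA-like limit, 4 with the mitochondrial share as a covariate, and 5 (without HFDfri 3) to 14 when 1 library was left out. For genes lower at that p, in place of 0, the mitochondrial covariate gave 1 and leaving out 1 library gave 0 to 2 (1 without HFDfre 2, 2 without HFDfri 1). Of the partner genes, the 12 higher became 6 within the ribosomal RNA-like limit and 4 with the mitochondrial covariate, and 8 to 13 when 1 library was left out. The 3 lower became 1 with library totals, 1 within that limit, 1 with the mitochondrial covariate, and 1 to 7 when 1 library was left out (1 without HFDfre 3 and without HFDfri 3, 7 without HFDfri 1). The 4 genes higher without overlap became 4 to 7 (7 without HFDfre 4 and without HFDfri 2), and the 0 lower became 0 to 1 (1 without HFDfre 2 and without HFDfri 1). Leaving out a library can only keep or raise the counts without overlap, so these fits could not have lowered them. The causes were not tested. The median log2 fold change of the ERAD genes stayed between 0.08 and 0.16. The cut to 5 libraries also removes HFDfri 3 and leaves fewer samples to the test. The mitochondrial share was mostly lower in HFDfri, so the fit with that covariate cannot separate the share from the diet group.

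Samples with the same replicate number did not deviate together (correlations of 0.027, 0.0813, -0.136 and 0.0339 for numbers 1 to 4), so the numbers are not taken to pair them. With the replicate block, 0 ERAD genes had an adjusted p under 0.05, 10 were higher at an unadjusted p under 0.05, and the median was 0.11. Every ERAD gene had at least 89 counts in each library, and with counts divided by 4 the number higher at an unadjusted p under 0.05 was 13, as before.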
